A study of Rattus norvegicus with 6 samples.

Results

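The regions described here are stretches of 1000 nucleotides of the rat genome, chosen by the share of their summed reads that was methylated. This share was higher in all 3 iron-deficient hippocampi than in all 3 iron-sufficient ones, by at least 10 percentage points. Chromosomes 1 to 20 of build rn4 were cut into stretches of this length. A region was tested when it held at least 5 CpGs covered in all 6 samples and at least 50 reads in each sample. The methylation level of a region is the percentage of its reads, summed over its CpGs, that were methylated. This level also depends on how the reads of a sample fall on the CpGs. A region was a member when its lowest iron-deficient level lay at least 10 percentage points above its highest iron-sufficient level, and this margin is called the gap. For single CpGs and for promoter sequences, the groups are called separated at any gap above 0, without the 10 points. Of the 890616 regions tested, 5178 were members, which is 0.581% of them. The opposite criterion, with the iron-sufficient samples higher, was met by 3471 regions, or 0.39%. With the mean of the CpGs in place of the sum of reads, 25.7% of the members kept a gap of 10 points. The members were thus chosen by their methylation levels in this same comparison, and levels, gaps and differences are given as a description without a test.

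Whole genome bisulfite sequencing (WGBS), which reads unmethylated cytosines as thymines, was made from hippocampi of CD1 Sprague-Dawley rat pups at postnatal day 15. In the iron-deficient group (3 samples) the food of the dams held 4 ppm iron from gestational day 2 until postnatal day 7. After that day the dams ate food with 200 ppm iron. The study states, from earlier work, that this diet left the hippocampus of the pups iron-deficient at postnatal day 15. In the iron-sufficient group (3 samples) the diet held 200 ppm iron throughout. Samples are called biological replicates, but the litter and sex of the pups are not given in the sources used here. The median coverage of chromosome X was 0.455 to 0.609 of that of the autosomes in the iron-sufficient and 0.5 to 0.529 in the iron-deficient samples. Hippocampal tissue holds many cell types, whose shares these data cannot tell apart from changes within a cell type.

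The files listed between 16699344 and 21093430 CpGs per sample, and the median coverage of a CpG was between 17 and 33 reads. Across the regions tested, the levels of 2 samples correlated with Pearson's r between 0.68 and 0.845, given as a description because regions are not independent. Iron-sufficient replicate 2 stood apart, since each of the other samples had its lowest r with it. With this sample left out, 13966 regions met the criterion in the remaining 5 samples, which is easier to pass with 2 samples in a group.

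In mammals, DNA methylation is found mostly on the cytosines of CpG dinucleotides. Most CpGs away from gene starts are methylated, while CpG-dense promoters are usually free of methylation, and a methylated promoter usually belongs to a silent gene. At some regions of imprinted genes 1 parental copy is methylated and the other is not, so that a mixed sample of cells reads at an intermediate level there. Removal of methylation by the TET enzymes needs iron, which is known from biochemistry and was not measured here.

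The members that lie on named promoters are shown first, because they are the ones whose sequence can be given. Promoter sequences of 300 nucleotides (250 before and 50 after the gene start) were taken from RefSeq for build GRCr8. They were placed on rn4 only by matching the spacing of their CpGs to the CpG positions in the files. Of 15918 promoters with at least 8 CpGs, 13751 were placed (86.4%), and 99.5% of these fell on the chromosome that RefSeq names. Of the members, 21 touched a placed promoter. Promoters with few CpGs could not be placed, so that a nearer gene than the ones named here may exist. The 5 sequences below are those whose own CpGs separated the groups upward (Tmem106a, Tm6sf2 and Msantd1) and those of the imprinted genes among the members (Gnas and Snrpn). Each is written 5′ to 3′ along the gene's strand, and capitals mark the CpGs.

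Tmem106a (chr10:90602234-90602533, plus strand): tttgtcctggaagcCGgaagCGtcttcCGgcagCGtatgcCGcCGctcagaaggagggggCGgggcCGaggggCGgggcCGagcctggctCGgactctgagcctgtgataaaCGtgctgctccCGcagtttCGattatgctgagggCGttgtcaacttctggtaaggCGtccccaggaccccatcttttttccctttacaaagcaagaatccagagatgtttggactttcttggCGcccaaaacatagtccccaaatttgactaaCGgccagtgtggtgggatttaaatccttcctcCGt
Tm6sf2 (chr16:19834644-19834943, minus strand): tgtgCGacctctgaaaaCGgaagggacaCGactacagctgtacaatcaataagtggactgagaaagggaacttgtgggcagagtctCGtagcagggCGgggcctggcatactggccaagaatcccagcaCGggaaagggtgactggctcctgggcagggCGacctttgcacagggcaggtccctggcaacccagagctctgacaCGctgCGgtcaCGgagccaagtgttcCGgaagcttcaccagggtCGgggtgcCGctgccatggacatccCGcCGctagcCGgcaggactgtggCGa
Msantd1 (chr14:81483115-81483414, minus strand): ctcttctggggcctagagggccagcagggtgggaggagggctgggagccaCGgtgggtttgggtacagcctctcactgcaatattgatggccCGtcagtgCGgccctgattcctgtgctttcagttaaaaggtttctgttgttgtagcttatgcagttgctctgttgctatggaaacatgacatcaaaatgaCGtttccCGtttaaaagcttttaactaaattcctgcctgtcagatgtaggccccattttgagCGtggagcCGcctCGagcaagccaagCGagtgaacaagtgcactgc
Gnas (chr3:165213149-165213448, plus strand): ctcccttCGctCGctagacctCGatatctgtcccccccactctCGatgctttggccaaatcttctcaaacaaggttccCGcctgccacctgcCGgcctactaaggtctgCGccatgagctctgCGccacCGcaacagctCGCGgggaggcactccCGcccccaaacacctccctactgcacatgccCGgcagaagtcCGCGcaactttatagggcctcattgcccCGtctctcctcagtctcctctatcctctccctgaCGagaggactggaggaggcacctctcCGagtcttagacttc
Snrpn (chr1:111592610-111592909, minus strand): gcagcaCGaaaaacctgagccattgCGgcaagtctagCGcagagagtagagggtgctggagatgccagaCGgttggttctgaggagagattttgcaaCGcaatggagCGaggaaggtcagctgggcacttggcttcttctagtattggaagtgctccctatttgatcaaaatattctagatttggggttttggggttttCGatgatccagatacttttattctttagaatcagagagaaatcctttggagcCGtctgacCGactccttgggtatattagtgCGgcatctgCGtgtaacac

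The sequence of Tmem106a, a gene of the TMEM106 family of membrane proteins, holds 19 CpGs, of which 18 were covered in all 6 samples. Over these CpGs, methylation was 2.83%, 0.651% and 3.71% in iron-sufficient replicates 1, 2 and 3 and 20.3%, 17.8% and 37.8% in iron-deficient replicates 1, 2 and 3. All 3 iron-sufficient samples were thus almost free of methylation in this promoter, and all 3 iron-deficient samples were partly methylated. The whole region (chr10:90602001-90603000, 19 CpGs covered) gave nearly the same values, with 2.78%, 0.647% and 3.9% against 20.2%, 17.7% and 41.2%. These are largely the same reads, because 18 of the 19 CpGs are those of the promoter. Of its 19 CpGs, 17 were higher in the summed iron-deficient reads, but 0 separated the groups on their own. The methylated CpGs differed between the iron-deficient samples. Replicate 2 was at 0% at all CpGs where replicates 1 and 3 were both methylated except the last covered one of the promoter, and most of its methylated reads came from 1 CpG, with 52.9% of 68 reads. With the mean of the CpGs in place of the sum of reads the groups overlapped, at 2.92%, 1.99% and 10.5% against 24.1%, 9.06% and 42%. This was the only placed promoter among the members whose own CpGs reached a gap of 10 points. As these CpGs are nearly all of a region chosen for its gap, the promoter gap is no further support.

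In the promoter of Tm6sf2, a gene of lipid export in the liver, the 13 covered CpGs gave 80.7%, 73.1% and 75.3% in the iron-sufficient and 88.3%, 85.5% and 92.1% in the iron-deficient samples, a gap of 4.8 points at a level that was high in both groups. In the promoter of Msantd1, a gene named for its Myb/SANT-like domain, 7 CpGs gave 18.9%, 9.14% and 17.3% against 47.7%, 20.8% and 32.6%, a gap of 1.91 points. In these 2 promoters the groups did not overlap, although iron-deficient replicate 2 of Msantd1 stood close to the iron-sufficient samples. In the other 18 of the 21 members, the CpGs inside the promoter sequence itself did not separate the groups upward. In 1 of them, Ubxn4, they separated the groups downward. The share of all placed promoters that separate the groups is not given here, so that these counts are not a result about the members. Over all 890616 regions, 52860 (5.94%) were separated upward and 36382 downward with no minimum gap.

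The imprinted genes were looked up because 2 of the 5 members with the most CpGs fell on them, so this list was chosen after its values were seen. Of 34 listed imprinted genes, 17 had a placed promoter in a region tested, and 2 of these regions were members. Of all 13591 regions that touch a placed promoter, 21 were members, and since the list was made because of these 2 genes, the difference in share is not a result. The region of Gnas (chr3:165213001-165214000), which encodes the stimulatory G protein alpha subunit in a complex imprinted locus, had 46 CpGs. Its methylation was 28.9%, 30.7% and 24.1% in the iron-sufficient samples and 44.7%, 64% and 55.4% in the iron-deficient samples, a gap of 14 points. The region of Snrpn (chr1:111592001-111593000), a paternally expressed splicing gene of the Prader-Willi locus, had 41 CpGs with 46.6%, 39.7% and 28.3% against 57.5%, 58.4% and 63.6%, a gap of 10.9 points. At both genes all samples were at an intermediate level. With the mean of the CpGs in place of the sum of reads, the gap was 6.16 points at Gnas, under the criterion, and 10.9 points at Snrpn. Leaving out a sample can only keep or raise a gap, so that a rise is no support for it. Without iron-deficient replicate 1 the Gnas gap was 24.7 points, and without iron-sufficient replicate 1 the Snrpn gap was 17.8 points. Within the printed promoter sequences, however, the groups overlapped. In the Gnas promoter the iron-sufficient samples were at 32.7%, 69.9% and 72.3% and the iron-deficient samples at 31.3%, 61.3% and 69.6%. In the Snrpn promoter they were at 71.9%, 13.2% and 17.4% and at 78.3%, 55.9% and 63.2%, and iron-sufficient replicate 1 was higher than 2 of the iron-deficient samples.

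At both imprinted regions the level of a sample changed abruptly along the sequence, as the plot of single CpGs shows. Among the CpGs of the Snrpn region with at least 10 reads in the sample, iron-sufficient replicate 2 had 12 of 33 at exactly 0% and 9 at exactly 100%, and iron-sufficient replicate 3 had 17 of 41 at 0%. Iron-deficient replicate 3 had 0 of 37 at either value. In the Gnas region, iron-sufficient replicate 2 had 13 of 33 such CpGs at 0% and 5 at 100%, and iron-deficient replicate 2 had 6 and 5 of 40. Iron-sufficient replicate 1 had 1 and 0 of 44 and iron-deficient replicate 1 had 1 and 0 of 43, so that samples with many and with few such CpGs occurred in both groups there. The samples thus differed in how often neighbouring CpGs were read as all methylated or all unmethylated. Over all CpGs of the regions tested with at least 10 reads, between 42.3% of the values (iron-sufficient replicate 1) and 71.5% (iron-sufficient replicate 2) were exactly 0% or 100%. In the members, these shares were between 27.5% and 61.7%. Whether copies of the same DNA fragment contributed to this was not tested, and the removal of duplicate reads is not described in the sources used here.

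**Figure D1:**
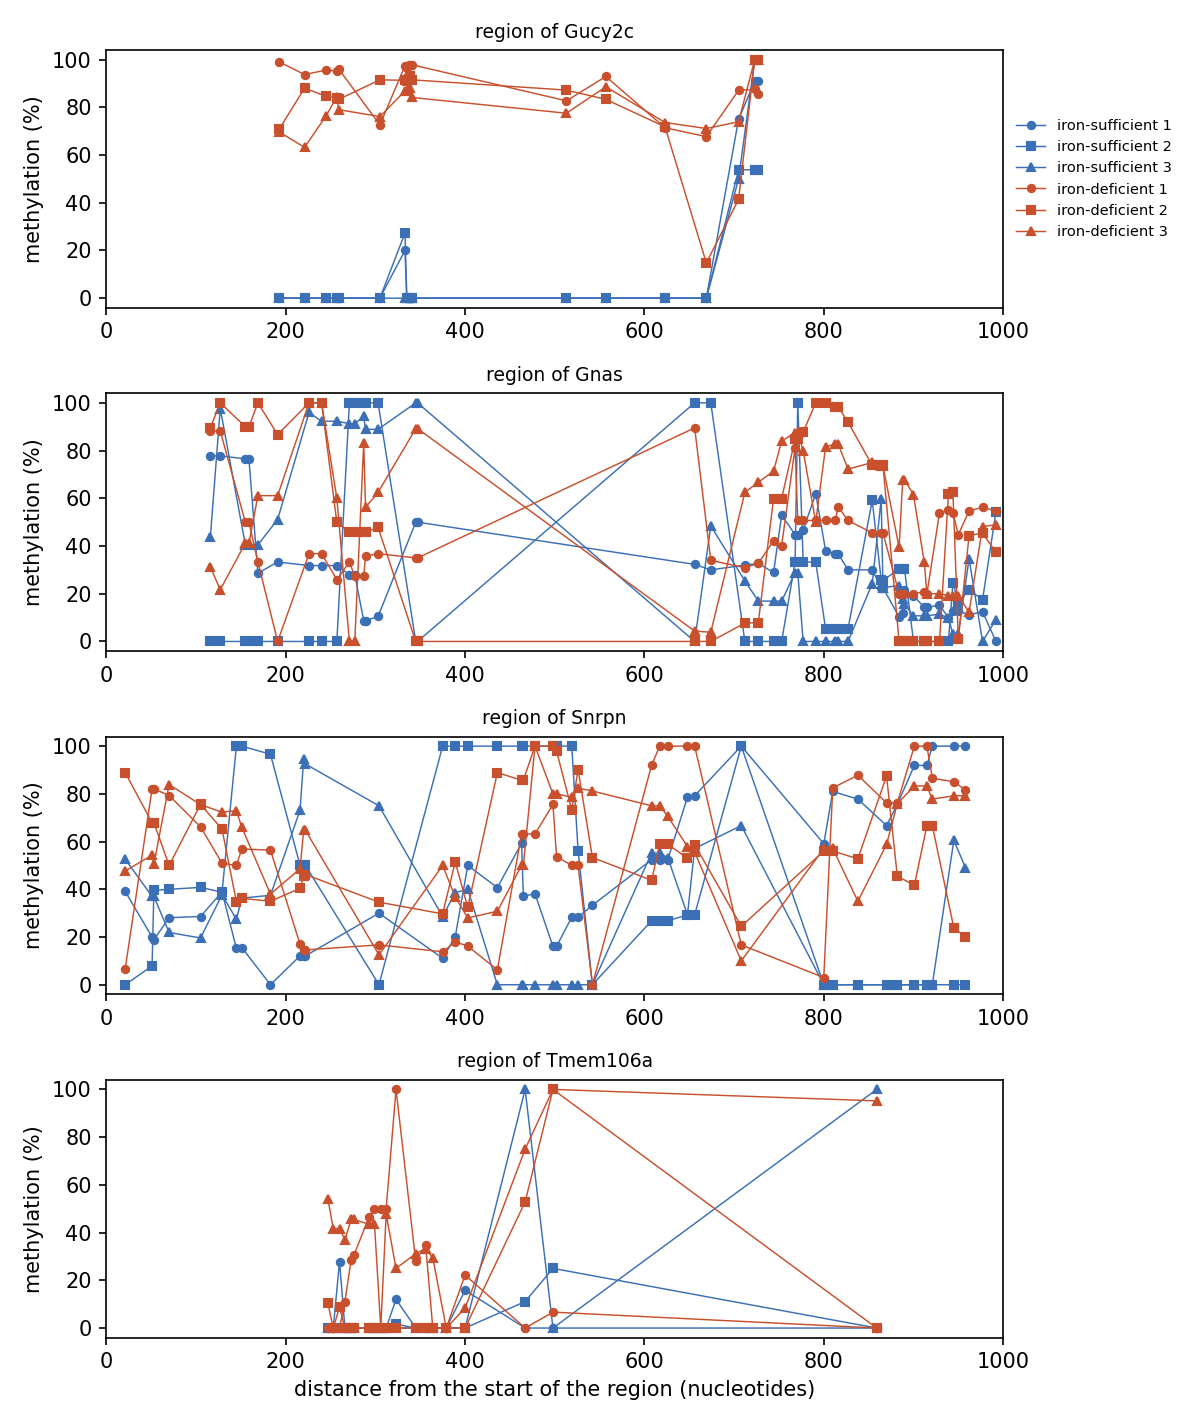
Methylation (%, vertical axis) of each CpG covered in all 6 samples in the regions of Gucy2c, Gnas, Snrpn and Tmem106a, by distance from the start of the region in nucleotides, with 1 line per sample (blue iron-sufficient, red iron-deficient, circles replicate 1, squares replicate 2, triangles replicate 3). In the Gucy2c region 15 of 18 CpGs separated the groups, whereas in the Gnas, Snrpn and Tmem106a regions 10 of 46, 7 of 41 and 0 of 19 did. In the same order, 15, 8, 5 and 0 CpGs had a gap of at least 10 points.

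The other 15 imprinted genes with a region tested had gaps between -28.8 and -1.13 points, so that none was separated upward. None was separated downward either, and the groups thus overlapped in all of them, as they did in most regions. With no minimum gap, 52860 of the 890616 regions were separated upward and 36382 downward. At these 15 genes the differences of group means lay between -9.6 and 9.36 points. The region of Meg3, a maternally expressed non-coding RNA, was at 36.4%, 77.2% and 34.7% in the iron-sufficient and at 49.3%, 63.8% and 49.7% in the iron-deficient samples. The region of Peg3, a paternally expressed zinc finger gene, was at 52%, 50.8% and 25.7% and at 29.6%, 46.9% and 23.2%. Both were at an intermediate level as well, but the groups overlapped. Other listed genes had low levels in both groups. The iron-sufficient and iron-deficient means were 1.39% and 1.83% at Blcap, 1.71% and 1.87% at Phlda2 and 3.73% and 3.54% at Igf2. Such levels leave little room for a gap of 10 points.

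Of the 21 members at placed promoters, 15 belonged to genes with a name and 6 to uncharacterised loci, with gaps from 10.1 to 22 points. Dhrs9, a short-chain dehydrogenase of retinol and steroids, had the largest difference among the named genes, with 74.9%, 34.6% and 56.3% in the iron-sufficient and 86.9%, 98.3% and 89.5% in the iron-deficient samples (chr3:51521001-51522000, 9 CpGs). Cst3, which encodes the secreted protease inhibitor cystatin C, was at 34.1%, 22.6% and 18% and at 51.4%, 65.5% and 51.1% (chr3:137655001-137656000, 6 CpGs). In the Dhrs9 region the iron-sufficient samples lay much further apart than the iron-deficient ones. The 3 covered CpGs inside the Cst3 promoter itself were at 0% in all iron-sufficient samples and at 0%, 6.34% and 5.26% in the iron-deficient ones. The region therefore touches a promoter that is almost unmethylated and holds partly methylated sequence next to it.

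Ndufc1, a subunit of mitochondrial complex I, showed the same arrangement. Its region (chr2:140302001-140303000, 6 CpGs) was at 34.4%, 34.2% and 25% against 53%, 67.6% and 44.9%, while its promoter was at 2.82% or less in all 6 samples. Wdr81, a protein of endosomal traffic, was at 12.4%, 4.76% and 14.6% against 27.3%, 53.3% and 27.3% (chr10:62771001-62772000, 19 CpGs), with iron-deficient replicate 2 far above the other two, and its promoter was at 7.16% or less in every sample. Dlg5, a membrane scaffold of the guanylate kinase family, was at 35.6%, 19.3% and 32.4% against 66.4%, 47.4% and 49.7% (chr15:73001-74000, 12 CpGs), and its promoter was at 7.89% or less in every sample. In all 3 of these genes the methylation was beside the promoter and hardly in it.

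Of the remaining named genes, Ccdc60, which encodes a coiled-coil protein, was at 27%, 16.8% and 38.2% against 57.4%, 63.8% and 49.3% (chr12:41556001-41557000, 7 CpGs). Rbpjl, a transcription factor of pancreatic acinar cells, was at 64.8%, 51% and 68.9% against 82.4%, 81.5% and 81.6% (chr3:155424001-155425000, 6 CpGs), with 3.36% or less in its promoter. In both, the iron-sufficient samples were the more scattered ones. Art4, an ADP-ribosyltransferase of red blood cells, was at 64.5%, 50% and 66.2% against 78%, 84.8% and 76.7% (chr4:173893001-173894000, 8 CpGs). Zfp217, a zinc finger factor, was at 75.1%, 59% and 68.3% against 86.5%, 87.4% and 85.2% (chr3:161161001-161162000, 12 CpGs). Ubxn4, a protein of degradation at the endoplasmic reticulum, was at 72.2%, 68.5% and 73.3% against 93.1%, 90.2% and 89.1% (chr13:40947001-40948000, 5 CpGs). The Ubxn4 region varied little within either group. Its 3 covered promoter CpGs, however, were at 12.1%, 94.9% and 2.88% against 0% in all iron-deficient samples, so that its promoter went the other way. The size of this difference rests on iron-sufficient replicate 2, which had 39 reads there and stood apart from the other samples across the regions.

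**Figure D2:**
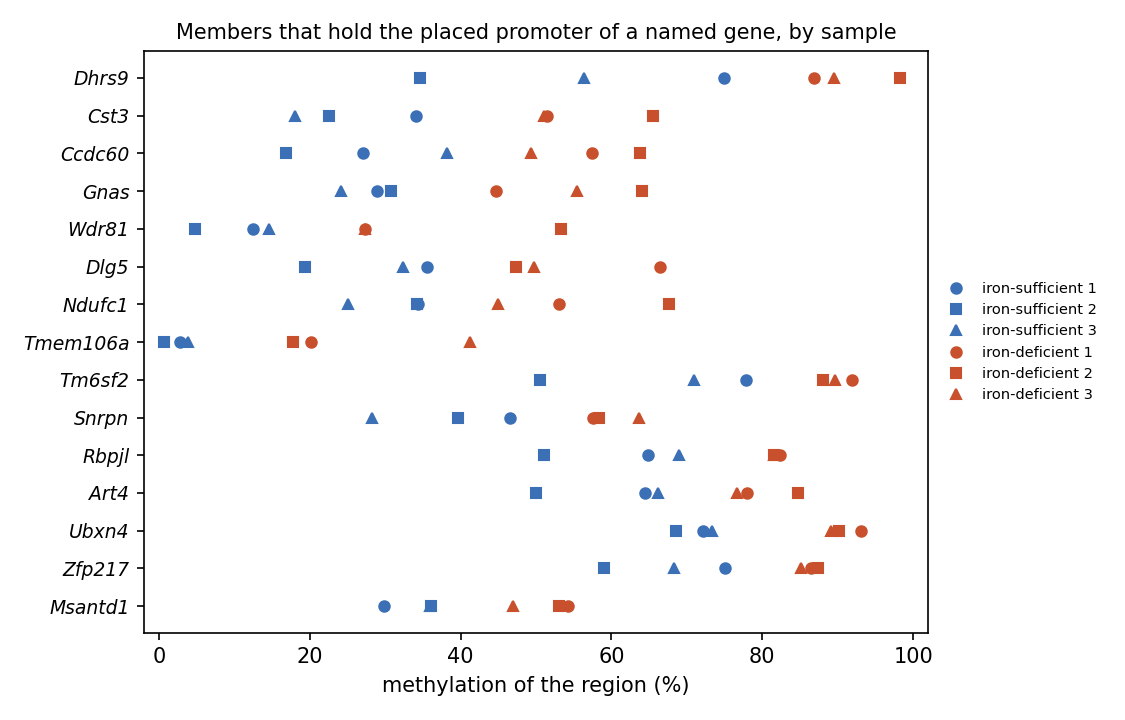
Methylation (%, horizontal axis) of the 15 members that touch the placed promoter of a gene with a name, with 1 point per sample (blue iron-sufficient, red iron-deficient, circles replicate 1, squares replicate 2, triangles replicate 3), ordered by the difference of the group means. The red points lie right of the blue points in every row, as the selection requires, and the iron-sufficient samples range from 34.6% to 74.9% in Dhrs9 but from 68.5% to 73.3% in Ubxn4.

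Promoters were rarer among the members than among all regions. A placed promoter was touched by 0.406% of the members and by 1.53% of the regions tested. Within 5 kb of a placed start lay 6.32% of the members and 8.15% of all regions, and the median distance to the nearest placed start was 82.8 kb for members and 71.3 kb for all regions. The regions separated downward were alike in this, with 0.403% at a placed promoter, 6.66% within 5 kb of a start and a median distance of 78.6 kb. The criterion itself seldom selects lowly methylated or CpG-dense regions. Members made up 0.00789% of the regions with a mean level under 10% and 0.0478% of those with 30 or more CpGs. CpG-dense promoters are usually free of methylation, so that the lower share at promoters is not a result about the members.

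Genes of 5 functions were looked up in the same way, from lists written with earlier results of these data known. They were genes of iron handling, of DNA methylation and demethylation, of synaptic plasticity, of myelin, and of hypoxia and vessel growth. Of the 110 listed genes, 51 had a placed start, and 378 regions tested lay within 5 kb of these starts. Iron handling had 12 of 28 genes placed, DNA methylation and demethylation 12 of 18, synaptic plasticity 8 of 25, myelin 7 of 17, and hypoxia and vessel growth 12 of 22. Members made up 0 of these 378 regions, compared with 327 of the 72546 regions (0.451%) near any placed start. Regions separated downward made up 0 of the 378 as well, compared with 231 (0.318%) near any placed start. The regions at the starts had low median levels in both groups, with 5.37% and 4.42% for the 12 iron handling genes and 4.13% and 2.99% for the 12 genes of DNA methylation and demethylation in the iron-sufficient and iron-deficient group. The medians were 8.25% and 4.25% for synaptic plasticity, 5.06% and 5.11% for myelin, and 5.81% and 3.89% for hypoxia and vessel growth.

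The 12 members with the largest gap had gaps from 35.1 to 60.6 points. The largest was the region of chromosome 4 that the study drew for Gucy2c, the guanylate cyclase receptor known from the intestinal lining (chr4:173782001-173783000, 18 CpGs). It was at 11.3%, 19.8% and 11.8% in the iron-sufficient and at 92.4%, 85.2% and 80.4% in the iron-deficient samples. The groups were thus at opposite ends of the scale, and each of the 18 CpGs was higher in the iron-deficient reads. The region 1 kb before it, towards lower coordinates, differed by 7.19 points and the one 2 kb after it by 2.77 points, while the region directly after it was not tested. The nearest placed start was that of H2aj, a histone gene, at 35.7 kb. Towards the end of the region the iron-sufficient samples rose as well, as the plot of single CpGs shows.

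The next 4 regions had fewer CpGs. The region chr18:77607001-77608000 (5 CpGs) was at 21.6%, 0% and 18.1% against 82.9%, 68.8% and 78.3%, and chr1:138239001-138240000 (7 CpGs) at 39.3%, 29.6% and 41.7% against 93.3%, 90.9% and 86.3%. The region chr11:73935001-73936000 (7 CpGs), 30.5 kb from the placed start of Fgf12, an intracellular relative of the fibroblast growth factors that acts on sodium channels, was at 46.8%, 46% and 18.6% against 89.4%, 90.3% and 98.9%. The region chr15:23270001-23271000 (5 CpGs) was at 31.5%, 43.7% and 36% against 89.9%, 100% and 83.9%. In these 4 the highest iron-sufficient level was 46.8% and the lowest iron-deficient level 68.8%. Of the 11 regions after Gucy2c, the number of CpGs was 8 at most, between 1 and 5 CpGs separated the groups on their own, and in 4 regions every CpG was higher in the iron-deficient reads. The 12 regions lay between 12.5 and 986 kb from the nearest placed start, 8 of them over 50 kb.

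The other 7 of the 12 had gaps from 35.1 to 40 points. The region chr4:136073001-136074000 (8 CpGs) was at 19.1%, 15.1% and 19.4% against 61.8%, 67.8% and 59.4%, and chr18:74623001-74624000 (6 CpGs) at 14.8%, 11.4% and 4.09% against 58.2%, 51.8% and 59.2%. In both, the iron-sufficient samples were lowly methylated and the iron-deficient samples intermediate. The region chr1:5419001-5420000 (7 CpGs) was at 42.9%, 40.9% and 38.2% against 93.6%, 93.3% and 81.7%, and chr4:13149001-13150000 (8 CpGs) at 59.2%, 41.9% and 41.1% against 95.6%, 94.6% and 94.9%. The region after chr1:5419001-5420000 differed by 26.2 points as well. The region chr16:59278001-59279000 (5 CpGs) was at 46.1%, 34.1% and 45.5% against 92.2%, 82.6% and 94.3%, chr2:51063001-51064000 (7 CpGs) at 37.5%, 32.2% and 10.4% against 72.9%, 79.6% and 99.4%, and chr3:170809001-170810000 (5 CpGs) at 35%, 35.9% and 37.6% against 91.1%, 72.7% and 87.2%. In the last 3 the iron-deficient samples were largely methylated.

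Several of the 12 depended on the weighting by reads. With the mean of their CpGs in place of the sum of the reads, the groups were no longer separated upward at chr15:23270001-23271000 (gap -10.8 points) and chr3:170809001-170810000 (gap -14.7 points). The gap at chr2:51063001-51064000 fell to 1.07 points. In the other 9 regions the gap of the unweighted means was between 11 and 65.7 points, with the highest at the Gucy2c region. In the chr15 region 3 of the 5 CpGs were higher in the iron-deficient reads. Without the CpG of widest range, the gap fell from 42.6 to 22.7 points at chr11:73935001-73936000, from 36.5 to 22 points at chr16:59278001-59279000 and from 35.4 to 20.7 points at chr4:13149001-13150000.

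The 5 members with the most CpGs had gaps between 10.9 and 23.4 points. Beside Gnas and Snrpn these were chr19:27431001-27432000 with 46 CpGs, chr5:74905001-74906000 with 42 and chr16:82634001-82635000 with 42. The chr19 region was at 69.5%, 65.3% and 60.9% against 89.2%, 92.4% and 86.1%. On their own, 13 of its CpGs separated the groups, 9 of them by at least 10 points. Some of these CpGs had very few reads. The widest gap, 88.2 points, was at a CpG with 2, 1 and 3 reads in iron-sufficient replicates 1, 2 and 3. With CpGs of at least 10 reads in all samples, the gap of the chr19 region was 18.9 points. The chr16 region lay 0.67 kb from the placed start of Arhgef7, an exchange factor of small GTPases at synapses. It was at 16.4%, 14.5% and 9.15% against 27.7%, 38.7% and 35.6%. On their own, 2 of its CpGs separated the groups, 1 of them by at least 10 points. Its gap was 2.22 points with unweighted CpG means and 5.35 points with CpGs of at least 10 reads. Without iron-deficient replicate 1 it was 19.3 points, but leaving out a sample can only keep or raise a gap. The chr19 region lay 469 kb from the nearest placed start, and the region before it also differed, by 17.8 points.

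The chr5 region, 8.52 kb from the placed start of Frrs1l, which encodes a partner protein of AMPA receptors, was at 37%, 38.7% and 32.6% against 62.1%, 70.4% and 63%. Its gap of 23.4 points was the largest of these 5, but 0 of its 42 CpGs separated the groups on their own and 24 were higher in the iron-deficient reads. The mean of its CpGs was 38.1%, 36.7% and 35.7% against 27%, 50.1% and 24.9%, so that 2 of the 3 iron-deficient samples were then below all iron-sufficient ones. Mean reads per sample at its CpGs ranged from 5 to 151.

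Members were seldom adjacent. A single run of 3 members was found, on chromosome 18 (chr18:70649001-70652000), and 14 runs of 2. The run of 3 held 26 CpGs, with iron-sufficient means of 75.9%, 61.5% and 61.6% and iron-deficient means of 94.9%, 90% and 87.8% in its regions from first to last. Its gaps lay at 10.9 to 11.2 points, just over the criterion, and in the second region only 2 of 7 CpGs were higher in the iron-deficient reads. With unweighted CpG means the gaps of the 3 regions were -4.62, -11.4 and 0.912 points, and without iron-deficient replicate 1 those of the second and last were 29 and 17.9 points. Without iron-sufficient replicate 2 the gap of the last was 17.6 points. As leaving out a sample can only keep or raise a gap, such rises are no support for the gaps. The 2 pairs with the largest mean gaps were chr3:47286001-47288000 and chr2:197222001-197224000. In the second region of the chr3 pair, methylation was 45.8%, 31.2% and 45% against 91.4%, 76.4% and 74.8%, and in the second of the chr2 pair 28%, 30.9% and 16.9% against 75.6%, 70.2% and 56.5%. The group means differed by 27.7 and 40.2 points in the regions of the chr3 pair and by 43.3 and 42.2 points in those of the chr2 pair. With unweighted CpG means, the gap was -7.53 points in the second region on chr3 and -9.13 points in the first region on chr2. The gap of this first chr2 region rose from 16.4 to 27.3 points without iron-sufficient replicate 1 and to 30.2 points without iron-deficient replicate 1, and that of the second from 25.5 to 39.3 points without iron-deficient replicate 3.

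Of the 5849 tested regions directly next to a member, 32 were members (0.547%), where 0.551% of the neighbours of all regions were. The median difference between the groups in these neighbours was 1.01 points (quartiles -4.52 and 6.98), compared with 0.715 points (quartiles -4.54 and 6.14) for the neighbours of all regions. At 5 kb the medians were 0.67 and 0.735 points, and 0.785% of the regions were members where 0.555% were around all regions. In the members themselves the median difference was 25.2 points.

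Of the 5 windows with a gain of methylation that the study drew, 1 region was a member (Gucy2c) and 4 were not. The region of Tnni1, a troponin of slow muscle (chr13:48819001-48820000, 49 CpGs), missed the criterion narrowly with a gap of 9.48 points, at 57.9%, 32.1% and 43.7% against 67.7%, 67.4% and 72%. All of its 49 CpGs were higher in the iron-deficient reads. The region of Pde6c, a phosphodiesterase of cone cells (chr1:242506001-242507000, 23 CpGs), had a gap of 6.18 points, and that of Usp36, a deubiquitinase (chr10:108269001-108270000, 38 CpGs), a gap of 2.65 points. The region of Chd2, a chromatin remodeller (chr1:128654001-128655000, 34 CpGs), had 49.7%, 71.7% and 15.9% against 79.8%, 84.6% and 73.8%, a gap of 2.07 points with a large spread among the iron-sufficient samples. The windows themselves are shorter than the regions, and the study called them by another criterion. It went CpG by CpG, with at least 10 reads and cutoffs on the difference of weighted means and on a p-value. It did not require all samples of the groups to lie 10 points apart. Leaving out a sample can only keep or raise a gap, and each of the 4 passed 10 points without 1 sample, namely Tnni1 with 23.7 points without iron-sufficient replicate 1, Usp36 with 22.7 points without iron-deficient replicate 3, Pde6c with 14 points without iron-deficient replicate 1 and Chd2 with 24.1 points without iron-sufficient replicate 2. With only CpGs of at least 10 reads in all samples, the gap was 10.1 points at Tnni1, 12.2 points at Pde6c and 26.9 points at Chd2, and 2.19 points at Usp36.

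At the threshold, the 3 members with the smallest gap each had 10 points. For example chr8:125488001-125489000 (7 CpGs) was at 85.5%, 79.8% and 68.9% against 95.5%, 96.5% and 95.7%. The regions just outside had gaps of 9.999, 9.999 and 9.998 points, such as chr15:88878001-88879000 (16 CpGs) with 83.1%, 73.6% and 84.1% against 94.1%, 95.9% and 94.1%. The members chr2:213802001-213803000 (5 CpGs) and chr2:176684001-176685000 (6 CpGs) and the regions chr5:23561001-23562000 (8 CpGs) and chr7:43716001-43717000 (6 CpGs) just outside it had 0 CpGs that separated the groups on their own, as did the chr15 region just named. Without iron-deficient replicate 3 the gaps of the chr2 members were 27.2 and 18 points, in this order. Without iron-sufficient replicate 1 that of the chr8 member was 15.7 points. The gap of chr7:43716001-43717000, just outside, was 22.4 points without iron-deficient replicate 2 and 17.7 points without iron-sufficient replicate 1. Leaving out a sample can only keep or raise a gap.

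Over all members, the median level was 61.1%, 54.1% and 58.1% in iron-sufficient replicates 1, 2 and 3 and 84.4%, 87.1% and 83.8% in the iron-deficient replicates. Over all regions tested the medians were 79.9%, 79.5% and 80.2% against 80.4%, 81.3% and 80.7%. In the members the iron-sufficient samples were thus further from the median of all regions than the iron-deficient ones. The regions separated downward mirrored this, with a median of 84% for the iron-sufficient means and 56.6% for the iron-deficient means, so that the group chosen to be lower was the one further from the bulk of the genome in either direction. The iron-deficient mean was over 80% in 62.8% of the members, compared with 51.6% of all regions, and the iron-sufficient mean was over 80% in 4.04%, compared with 49.1%. Only 35 members (0.676%) had a mean level under 20%, compared with 4.34% of all regions. The median gap was 13 points, with quartiles of 11.3 and 15.9 points. The gap was at least 15 points in 1591 members, 20 points in 496, 30 points in 50 and 40 points in 5.

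**Figure D3:**
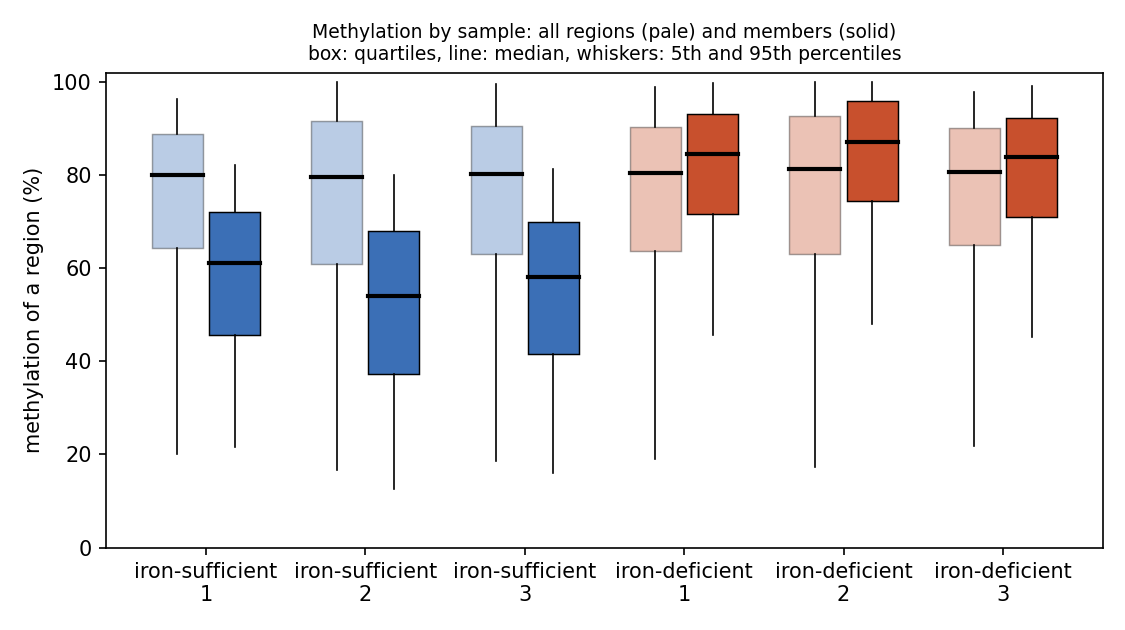
Methylation (%, vertical axis) of all 890616 regions tested (pale) and of the 5178 members (solid) in each sample, as median (line), quartiles (box) and 5th and 95th percentiles (whiskers), blue for iron-sufficient and red for iron-deficient samples. All regions had medians between 79.5% and 81.3% in the 6 samples, and the members were below this in the iron-sufficient samples (54.1% to 61.1%) and above it in the iron-deficient samples (83.8% to 87.1%).

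On their own, 13.5% of the 41564 CpGs in members separated the groups upward, compared with 2.44% of the CpGs of all regions. Of the CpGs in members, 75.7% were higher in the summed iron-deficient reads, compared with 45.9% of those of all regions. CpGs at the same level in both groups do not count as higher, so that 45.9% does not mean that most CpGs were lower. In 1860 members (35.9%) no CpG separated the groups on its own, in 1924 (37.2%) 1 CpG did, and in 133 (2.57%) at least 50% of the CpGs did, compared with 79.8%, 16.6% and 0.0423% of all regions. Every CpG was higher in 847 members (16.4%), compared with 0.984% of all regions. These CpG values come from the same contrast that chose the members.

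The members were not the same regions when the reads were weighed differently. With the mean of the CpGs of a region in place of the sum of their reads, 4354 regions met the criterion, 1330 of which were members, 30.5% of the 4354 and 25.7% of the members. The median difference over the members fell from 25.2 to 18.1 points on this scale, and 52 members were then not higher in the iron-deficient group. When the CpG with the widest range over the 6 samples was left out of each region, 4981 regions met the criterion and 2566 of them were members (49.6% of the members). The share of a region's reads at its most covered CpG had a median of 20.6% in members and 17.9% in all regions.

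Members were found mostly where there were few reads and few CpGs. Of the regions in which the sample with the fewest reads had 50 to under 100 reads, 0.861% were members. This share fell to 0.362% at 200 to under 400 reads and to 0.0374%, or 7 of 18725 regions, at 800 reads or more. By number of CpGs it fell from 0.851% at 5 or 6 CpGs to 0.0478% at 30 or more. The share separated downward fell along with it, from 0.617% to 0.00534% by reads and from 0.599% to 0.0106% by CpGs. Members had a median of 179, 198 and 242 reads in the iron-sufficient and 241, 289 and 154 in the iron-deficient samples, compared with 227, 240 and 302 and 299, 360 and 190 over all regions. These are counts of reads at CpGs, so that a read over several CpGs counts once for each. The number of CpGs was 7 at the median in members and 8 in all regions, and 23.2% of members had just 5, compared with 15.3% of all regions.

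**Figure D4:**
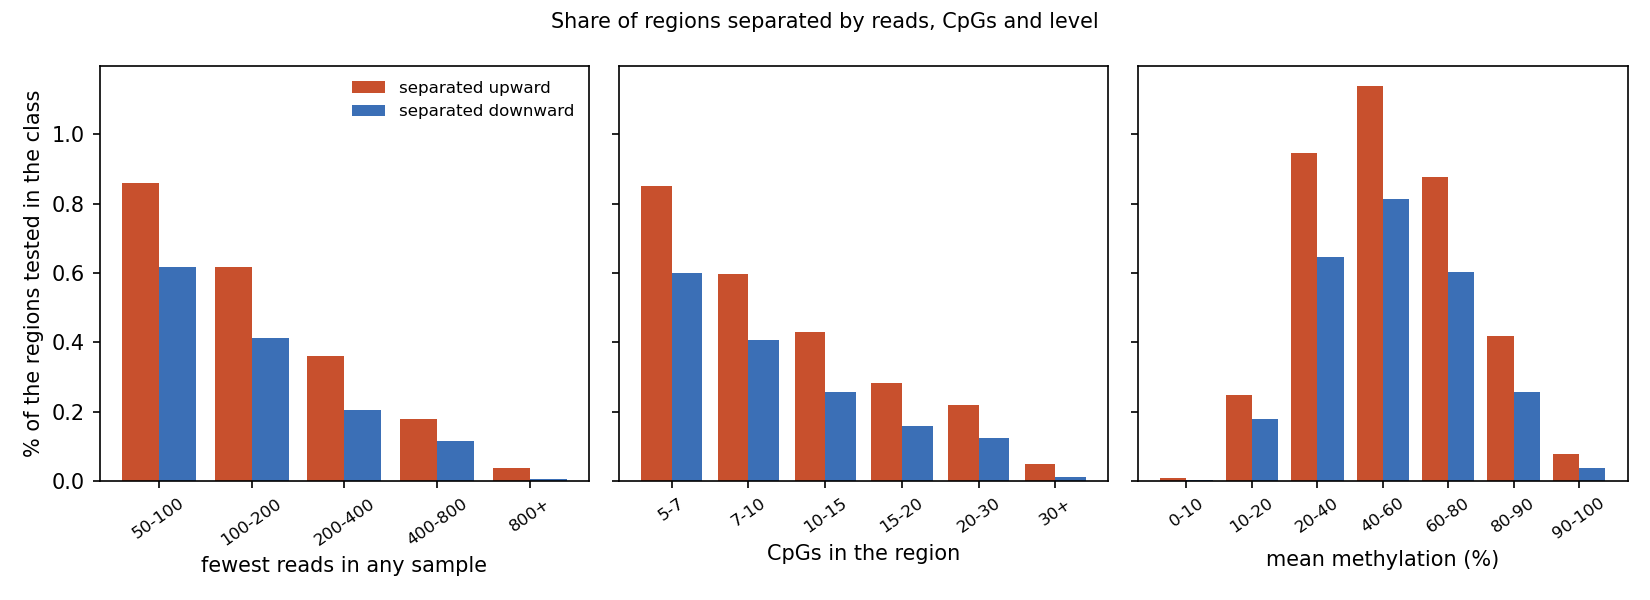
Percentage of the regions tested (vertical axis) that were separated upward (red) or downward (blue) in iron deficiency, in classes of the fewest reads in any sample, of the number of CpGs and of the mean methylation level (the lower bound of a class belongs to it). Both shares fall with reads and CpGs, from 0.861% to 0.0374% and from 0.851% to 0.0478% upward, and are highest at levels of 40% to 60% (1.14% upward).

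By level, members were most frequent at intermediate methylation. They made up 1.14% of the regions with a mean level between 40% and 60%, 0.0795% of those at 90% or more and 0.00789% of those under 10%. Levels near 0% or 100% leave little room for a gap of 10 points. Chromosomes differed little, with 0.487% of the regions on chromosome 20 and 0.694% of those on chromosome 18 as the lowest and highest shares. Within 3 Mb of a chromosome end lay 3.92% of the members and 4.07% of all regions.

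The count of members was set beside the counts that the same criterion gives when the 6 samples are grouped 3 against 3 in other ways. The other 18 groupings mix the diets and gave between 3358 and 5240 regions, with a median of 4164. Of these, 2 gave more than the 5178 members. They were the regions higher in iron-sufficient replicate 2 with iron-deficient replicates 2 and 3 (5240) and the regions higher in iron-sufficient replicates 2 and 3 with iron-deficient replicate 2 (5214). The downward count of 3471 was near the low end, and 1 of the mixed groupings gave fewer. Regions with at least 200 reads in every sample gave 890 members and between 525 and 950 regions in the mixed groupings, 2 of which gave more. The counts are not independent, because the groupings share samples, and they carry no p-value.

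Of the separated regions, 59.9% were separated upward. The median region was 0.744 points higher in the iron-deficient group. After the median of each sample was subtracted, which was added after the data had been seen, 4286 regions were separated upward and 4207 downward, so that the share upward was 50.5%. With this centring 8 of the 18 mixed groupings gave more than the upward count. The centring itself makes the medians of the samples equal.

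**Figure D5:**
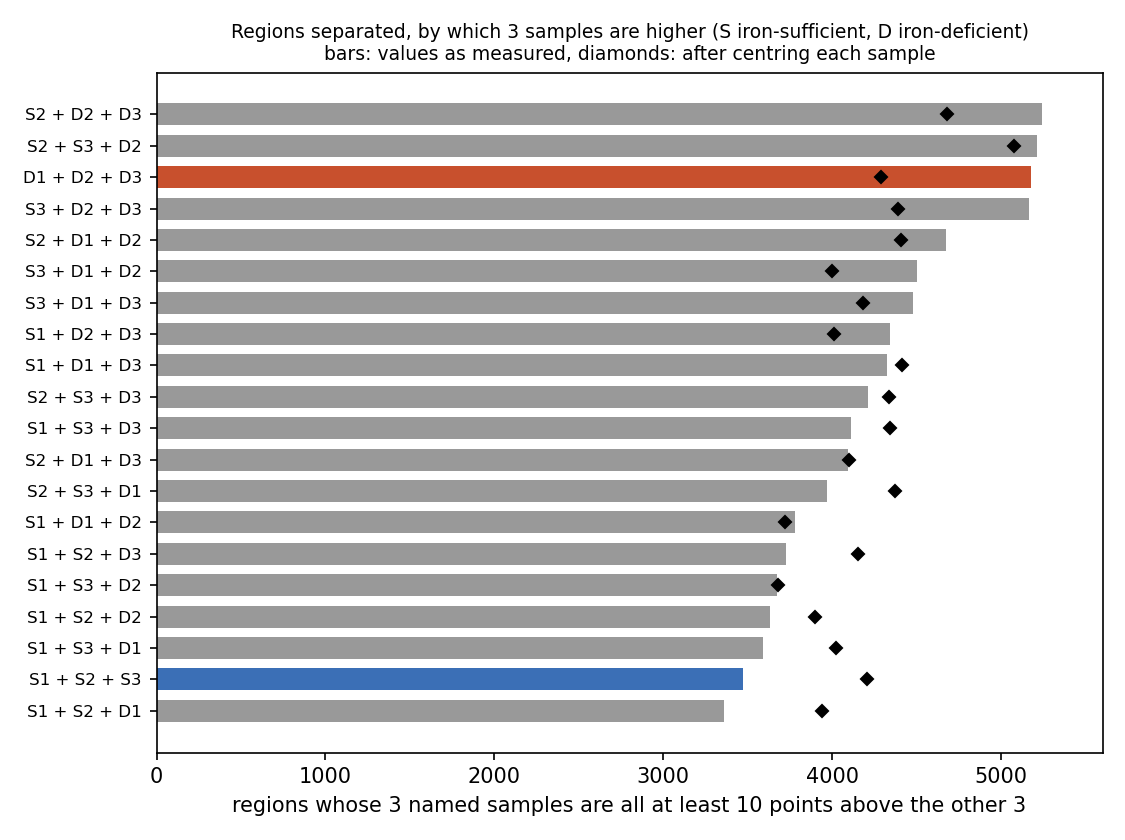
Number of regions (horizontal axis) in which the 3 samples named at the left (S iron-sufficient, D iron-deficient) all lay at least 10 points above the other 3, for all 20 choices, as bars for the values as measured and as diamonds after each sample was centred on its median. The 5178 members (red bar) had rank 3 of 20, and the 3471 regions separated downward (blue bar) rank 19.

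The total of reads per region entered the choice of the members through the minimum of reads, and the reads of each CpG entered it as weights of the levels, so that coverage was not fully independent of the choice. The test ran over all regions, and the members' values are read from it. The reads per region were compared between the groups over all 890616 regions by edgeR's quasi-likelihood test with Benjamini-Hochberg adjustment. The test called 5 regions (0.000561%), 2 with more reads in the iron-deficient group and 3 with fewer, and 1 of the 5178 members was among them. This was the Gucy2c region. It had 266, 227 and 195 reads in the iron-sufficient and 1252, 1564 and 930 in the iron-deficient samples, so that the groups did not overlap. The log2 ratio was 2.29 (edgeR, adjusted p = 0.032). The call was lost, with adjusted p-values from 0.071 to 0.48, when any of the 6 samples was left out, while the log2 ratio stayed between 2.08 and 2.49. It was also lost in edgeR with no minimum of reads (adjusted p = 0.25), with the replicate number as a block (adjusted p = 0.14) and with only the most covered CpG (log2 ratio 1.92, adjusted p = 1). With DESeq2 the adjusted p was 3.2e-06, and the member chr2:28997001-28998000 was called as well.

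The other 11 of the regions with the largest gaps had log2 ratios of reads between -1.19 and 0.88 and adjusted p-values of at least 0.96 in the edgeR test. On simulated reads of 23802 regions of chromosome 20, the test called 10 of 100 planted 2-fold changes and 86 of 100 planted 4-fold changes. It also called 5 regions without a planted change. The simulation gave all regions the same spread and adjusted over these regions alone. The real test adjusted over all regions, so that it may call a smaller share of such changes. Ratios of this size could thus be missed, and these p-values do not show equal coverage. An unadjusted p-value under 0.05 was found for 303 members (5.85%) and for 45968 of all regions (5.16%), and the median log2 ratio of the members was 0.00.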

How the data were processed

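WGBS reads of 3 iron-sufficient and 3 iron-deficient hippocampi were adapter-trimmed with a custom program and aligned to rn4 with BS Seeker by the authors, who joined both strands of a CpG. For every CpG, the deposited tables hold its methylated fraction and its coverage, a count of reads, for each sample and without normalization. The sources used here do not say whether duplicate reads were removed or whether positions start at 0 or 1.

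Methylated reads were recovered as fraction times coverage and summed over regions of 1000 nucleotides of chromosomes 1 to 20. Coverage, which counts a read at each of its CpGs, was compared with edgeR 4.0.16 (TMM, glmQLFit, glmQLFTest, all 6 samples, adjusted p of at most 0.05) in R 4.3.3, with DESeq2 1.42.0 as an alternative. The scripts were tested on simulated data. Other steps used Python 3.11.15, numpy 2.4.6, pandas 2.3.3 and scipy 1.17.1. The members, gene lists and alternatives were chosen with earlier results of these data known. Regions were named when they had the 12 largest gaps, the 5 highest numbers of CpGs, the 3 longest runs or the 3 nearest gaps on either side of the threshold, held 1 of the study's 5 windows, or were called by coverage. Regions at promoters and at imprinted genes were added after their values were seen. No annotation of rn4 was used here, and chromosome X entered only the coverage per sample.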

Additional observations from a re-analysis of the deposited data

How the results depend on the processing

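The count of 5178 members depended on the criteria. It was 52860, 16802, 1591 and 496 with no minimum gap and with gaps of 5, 15 and 20 points, 1221 with at least 10 CpGs, 3198 and 890 with at least 100 and 200 reads, and 1507 with only CpGs of at least 10 reads in all samples, where fewer regions were tested. The other alternatives, with 3 CpGs, 20 reads, regions of 500 or 2000 nucleotides, moved borders, another weighting, CpGs left out or centring, gave 3462 to 7170. Without each replicate in turn, in a comparison of 3 samples with 2 that is easier to pass, it was 11484 to 20764.

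The share upward, 59.9%, was 62.1% with a gap of 20 points, 62.8% with 10 CpGs, 60.9% and 63.7% with 100 and 200 reads, 61.3% with 2000 nucleotides, 61.2% with moved borders and with unweighted means, 61.4% with CpGs of at least 10 reads, 58.6% without the CpG of widest range and 50.5% after centring. Without each replicate it was 52.6% to 64.6%, lowest without iron-deficient replicate 2 and highest without iron-sufficient replicate 3.

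With the replicate block, which takes the smallest of the 3 differences between samples of the same number, 16462 regions were upward and the share was 58.3%, and edgeR with the block called 1 region by coverage, 0 of them members. The deviations of same-numbered samples correlated with r of 0.002 to 0.005 across regions, and those of differently numbered samples with r of -0.004 to 0.001. The same-numbered values were thus the higher ones, but all were very weak. The numbers were therefore not taken to pair the samples.

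The coverage test called 5 regions with TMM, 100 with DESeq2, 0 without a minimum of reads (47468 at an unadjusted p under 0.05), 8 with 200 reads, 1 with only the most covered CpG and 0 to 8 without each replicate, where a group of 2 samples was left. The cause of these changes was not tested.

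Among the 27 named members, the gap turned negative with unweighted means at chr15:23270001-23271000 (-10.8), chr3:170809001-170810000 (-14.7), chr5:74905001-74906000 (-13.2), chr18:70649001-70650000 (-4.62), chr18:70650001-70651000 (-11.4), chr3:47287001-47288000 (-7.53) and chr2:197222001-197223000 (-9.13). Without the CpG of widest range it did at chr18:70650001-70651000 (-20.6), chr18:70651001-70652000 (-6.38) and chr2:176684001-176685000 (-7.16). A gap of at least 10 points was kept by 12 of the 27 with unweighted means and by 22 without the CpG of widest range.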
